A study of Mus musculus with 4 samples.

Results

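The 10 disease-associated microglia genes Spp1, Gpnmb, Lpl, Igf1, Apoe, Trem2, Tyrobp, Cst7, Itgax and Cd9 were taken by their symbols from the 27998 genes of the count tables, and all 10 were present. They were followed across microglia, macrophages, dendritic cells and lymphocytes in 4 single-cell RNA libraries of sorted brain immune cells from C57BL/6J mice. Glioma-005, a mouse glioblastoma line, was implanted in the hippocampus at 8 to 12 weeks of age, antibodies were given into the peritoneum from day 7, and tumors were collected at day 35. The groups were tumors given anti-CTLA-4 (clone 9H10) together with a CD4-depleting antibody (GK1.5; called depletion here), tumors given anti-CTLA-4, tumors given an isotype control (rat IgG2a, LTF-2; called IgG here), and healthy brain. The whole design rests on 1 tumor line. Each tumor library pooled 3 tumors, each group had 1 library, and no comparison could therefore be set against replicate error or carry a p-value.

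Before sequencing, the sorted fractions of each group, CD45int CX3CR1+ microglia, CD11b+ myeloid cells, CD3+ T cells and all other CD45hi cells, were mixed at equal ratios, so the sort sets how many cells each class has. After filtering, 3706 cells remained with depletion, 1763 with anti-CTLA-4, 1434 with IgG and 1388 in healthy brain, out of libraries of 21471565, 13428840, 9952379 and 7950206 unique molecular identifiers (UMIs). Clusters were built without the members and named from marker genes. Microglia numbered 460, 206, 287 and 791 cells in the same order of libraries, and macrophages 769, 274, 267 and 54. The classes held different clusters in different libraries. Of the microglia, 239, 172, 275 and 51 cells lay in cluster 1, 194, 2, 5 and 8 in cluster 5, and 27, 32, 7 and 732 in cluster 19. The depletion library stood apart, with nearly all cells of cluster 5 and of macrophage cluster 3. It shared 6 barcodes with anti-CTLA-4, 1 with IgG and 2 with healthy brain. Xist stood at 715, 889 and 950 CPM over all cells of the tumor libraries and 2.19 CPM in healthy brain, and Ddx3y at 0.451, 0.244 and 1.94 against 68.0 CPM, so sex and tumor cannot be told apart in any comparison with healthy brain.

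Microglia that meet damaged tissue, dying cells or lipid debris leave their homeostatic state and take up a program of phagocytosis, lysosomal digestion and lipid handling, which is best described around amyloid plaques and in demyelination. The receptor TREM2 and its signalling adaptor TYROBP are needed for the full program, and TREM2 binds lipids and lipoproteins, apolipoprotein E among them. In gliomas, microglia meet macrophages that arise from blood monocytes, which can express several of the same genes.

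Promoters of the members were searched for 6 motifs, and windows are printed for the members with a match to TGANTCA. RefSeq's promoter table (GRCm38.p6) held 8 of the 10 members, with 11 start sites, and did not list Lpl and Tyrobp. The motif TGANTCA is a loose form of the AP-1 site TGA(C/G)TCA, with the middle base left free. It was found on either strand within 250 bases before to 50 after a start in 7.81% of all 32851 promoters. It was in 5 of the 11 member promoters, the measure to set beside that share, and these belonged to 5 of the 8 members. Only Gpnmb (TGACTCA) and Itgax (TGAGTCA) had C or G in the middle. The share of all promoters with the stricter site was not counted. The 5 windows run from 250 bases before the RefSeq start to 20 bases from it, 5′ to 3′ on the plus strand, with the match in capitals. They lie at chr2:150570165-150570434 (Cst7), chr7:128129300-128129569 (Itgax), chr17:48346151-48346420 (Trem2), chr10:87860861-87861130 (Igf1) and chr6:49036268-49036537 (Gpnmb).
Cst7: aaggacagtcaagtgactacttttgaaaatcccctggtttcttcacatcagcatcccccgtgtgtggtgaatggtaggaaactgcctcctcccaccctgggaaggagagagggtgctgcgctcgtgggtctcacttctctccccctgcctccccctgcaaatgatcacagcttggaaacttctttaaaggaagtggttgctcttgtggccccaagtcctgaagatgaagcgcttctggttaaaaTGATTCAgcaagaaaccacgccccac
Itgax: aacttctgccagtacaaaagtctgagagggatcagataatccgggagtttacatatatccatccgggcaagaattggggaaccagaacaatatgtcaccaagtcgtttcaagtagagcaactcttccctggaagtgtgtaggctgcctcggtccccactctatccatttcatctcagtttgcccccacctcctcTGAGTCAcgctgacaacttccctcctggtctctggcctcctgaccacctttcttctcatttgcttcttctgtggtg
Trem2: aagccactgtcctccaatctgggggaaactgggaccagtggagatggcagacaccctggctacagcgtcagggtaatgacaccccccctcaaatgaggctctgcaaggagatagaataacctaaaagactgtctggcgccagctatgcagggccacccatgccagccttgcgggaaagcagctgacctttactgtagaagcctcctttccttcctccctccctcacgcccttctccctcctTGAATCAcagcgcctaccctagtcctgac
Igf1: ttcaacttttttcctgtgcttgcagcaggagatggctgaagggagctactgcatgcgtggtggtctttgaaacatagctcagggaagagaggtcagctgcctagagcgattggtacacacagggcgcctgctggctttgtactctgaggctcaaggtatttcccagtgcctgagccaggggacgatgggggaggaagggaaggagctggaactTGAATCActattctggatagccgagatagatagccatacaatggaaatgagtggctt
Gpnmb: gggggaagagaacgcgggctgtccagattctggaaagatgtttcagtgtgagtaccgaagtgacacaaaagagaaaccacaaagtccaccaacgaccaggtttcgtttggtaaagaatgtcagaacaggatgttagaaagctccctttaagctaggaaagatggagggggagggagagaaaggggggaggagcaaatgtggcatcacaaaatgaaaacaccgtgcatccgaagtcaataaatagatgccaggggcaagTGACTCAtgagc
Cst7 and Itgax rose in IgG microglia against healthy brain, while Trem2 and Igf1 stayed within 2-fold and Gpnmb had too few UMIs. The match begins 6 bases before the start in Cst7, 56 before it in Itgax, 9 before it in Trem2, 37 before it in Igf1 and 8 after it in Gpnmb. Other letters searched on both strands were CACGTG, the site of MiT/TFE factors (7.15% of all promoters, none of the 8), GAGGAA, the core of PU.1 sites (28.3%; Spp1, Igf1, Apoe and Trem2), TGTGGT, the RUNX site (16.8%; Spp1, Gpnmb, Cst7 and Itgax), CATGTG, an E-box (14.2%; Cd9), and the LXR response element (0.0152%; none). A match describes these letters only and shows no binding.

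The members fell into different patterns across cell classes. Levels are CPM, the UMIs of a gene summed over the cells of a class and library and scaled by the total UMIs of those same cells. Intervals are 95% intervals of counting error alone; UMIs of a gene often gathered in single cells, which makes the true error wider. Trem2 (ENSMUSG00000023992, chromosome 17, 48346401 to 48354147, mm10), the lipid-sensing receptor, was highest in microglia in every library and next in macrophages. Tyrobp (ENSMUSG00000030579, chromosome 7, 30413760 to 30417585) serves many receptors of myeloid and NK cells. It was highest in neutrophils, at 6124, 8299, 7265 and 5009 CPM with depletion, with anti-CTLA-4, with IgG and in healthy brain. It reached 2400, 2744 and 2407 CPM in NK cells of the 3 tumor libraries, and 69.3, 81.2, 72.7 and 20.8 CPM in T cells of the 4 libraries.

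Apoe (ENSMUSG00000002985, chromosome 7, 19696109 to 19699188), the main lipid carrier of the brain, was spread over microglia, macrophages and patrolling monocytes. Cst7 (ENSMUSG00000068129, chromosome 2, 150570415 to 150578944) encodes cystatin F, an inhibitor of lysosomal cysteine proteases that cytotoxic lymphocytes also make. It was highest in microglia and next in NK cells in each tumor library, and highest in T cells in healthy brain. Itgax (ENSMUSG00000030789, chromosome 7, 128129547 to 128150657) encodes CD11c, an integrin chain known from dendritic cells. It was highest in patrolling monocytes with depletion, with anti-CTLA-4 and in healthy brain (102, 106 and 80.7 CPM), and in neutrophils with IgG (151 CPM, on 21 UMIs), leaving out the 2 dendritic cells and 4 NK cells of healthy brain. Cd9 (ENSMUSG00000030342, chromosome 6, 125460266 to 125494791) is a tetraspanin of the cell surface. Cd9 was highest in microglia and next in neutrophils in the 3 tumor libraries. The remaining members were Spp1 (ENSMUSG00000029304, chromosome 5, 104435118 to 104441050), which encodes the secreted protein osteopontin; Gpnmb (ENSMUSG00000029816, chromosome 6, 49036546 to 49070929), a glycoprotein of lysosomes and phagocytes; Lpl (ENSMUSG00000015568, chromosome 8, 68880491 to 68907448), lipoprotein lipase; and Igf1 (ENSMUSG00000020053, chromosome 10, 87858265 to 87937042), insulin-like growth factor 1.

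**Figure D1:**
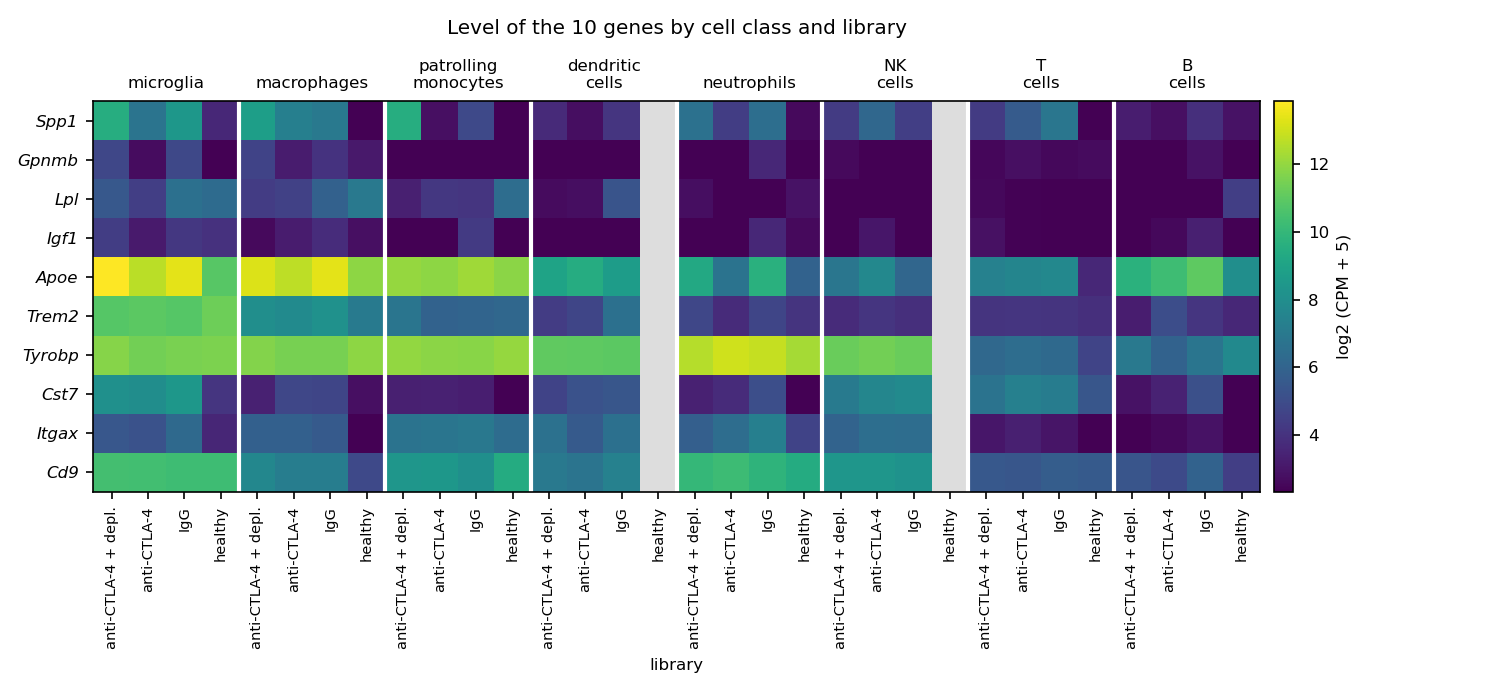
Level of each member (rows) in each cell class and library (columns), as log2 of CPM plus 5; grey columns are dendritic cells and NK cells of healthy brain, of which 2 and 4 were found. Tyrobp is bright across the myeloid and NK classes, Apoe in microglia, macrophages and patrolling monocytes, Trem2 and Cd9 are brightest in microglia, and Cst7 is bright in microglia, NK cells and T cells of the tumor libraries.

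Between IgG tumors and healthy brain, microglia carried more Apoe, Cst7 and Itgax, while Trem2, Tyrobp and Cd9 stayed within 2-fold. A gene was said to rise or fall where the 2 libraries held at least 50 of its UMIs together, at least 10% of cells of the higher library had one, and the CPM ratio reached 2. In this comparison 9 members could be tested and 3 rose, and none fell. Over all 8481 genes tested, 4.04% rose and 7.19% fell.

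The sensor pair showed no rise. Trem2 stood at 1788 (95% CI 1739 to 1838) CPM in microglia with depletion, 1961 (1884 to 2041) with anti-CTLA-4, 1804 (1743 to 1866) with IgG and 2532 (2484 to 2581) in healthy brain, where it was highest. The ratio of IgG to healthy brain was 0.712 (95% CI 0.685 to 0.741). Tyrobp stood at 3529, 2731, 2943 and 3056 CPM in the same order of libraries, with a ratio of IgG to healthy brain of 0.963 (0.933 to 0.994). Its direction depended on the scaling, since median-of-ratios size factors gave 1.21. These factors moved the median gene by 0.33 on the log2 scale, and with them 507 genes rose and 262 fell, against 343 and 610 by CPM.

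Of the lipid genes, Apoe stood at 14909 CPM in microglia with depletion, 6552 with anti-CTLA-4, 10656 with IgG and 1848 in healthy brain. All 4 intervals were separate, and IgG exceeded healthy brain 5.76-fold (95% CI 5.61 to 5.92). An Apoe UMI was found in 87.2%, 69.9%, 78.4% and 62.2% of microglia. In T cells, which make little Apoe, the shares were 34.1%, 25%, 35% and 3.85%, at median depths of 4092.5, 5552.5, 5339.5 and 6072.5 UMIs per cell, against 4988.5, 5073.5, 5632 and 5156 in microglia. Lpl, which releases fatty acids from lipoproteins, stood at 40.9, 16.9, 90.7 and 77.3 CPM. Its IgG and healthy brain intervals overlapped (77.6 to 105 and 69.1 to 86.3), with a ratio of 1.17 (0.968 to 1.42).

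Cst7 and Itgax also rose. Cst7 stood at 269 (95% CI 250 to 289) CPM with depletion, 245 (218 to 274) with anti-CTLA-4, 336 (310 to 364) with IgG and 12.4 (9.26 to 16.4) in healthy brain. All tumor libraries lay far above healthy brain, by 27.0-fold for IgG (20.3 to 36.7), and a UMI was seen in 44.3%, 32.04%, 39.7% and 4.3% of cells. In B cells, taken as a class that should lack the gene, it was seen in 0.735%, 2.7% and 5.63% of tumor cells and in 0 of 109 healthy cells, which allows up to 2.75%; median depths there were 2753.5, 4990, 5073 and 3401 UMIs. Itgax stood at 38.7, 32.2, 71.4 and 6.83 CPM, so that IgG was highest and exceeded healthy brain 10.5-fold (6.91 to 16.3). Cd9 hardly varied, at 1360, 1301, 1257 and 1249 CPM.

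Spp1, Gpnmb and Igf1 did not pass in this comparison. Spp1 stood at 729 (95% CI 698 to 761) CPM with depletion, 102 (85.2 to 122) with anti-CTLA-4, 337 (311 to 364) with IgG and 7.07 (4.74 to 10.2) in healthy brain. IgG exceeded healthy brain 47.6-fold (32.8 to 71.6), but 9.41% of IgG cells had a UMI, which is short of the 10% the threshold asks for. Gpnmb stood at 22.4, 1.61 and 23.6 CPM in the tumor libraries, and 0 UMIs were seen in healthy brain, which allows 0.732 CPM. The ratio of IgG to healthy brain was therefore at least 32.3, on 44 UMIs of which 25 lay in 1 cell. Igf1 stood at 16.4, 4.02, 13.4 and 10.7 CPM, and its IgG and healthy brain intervals overlapped.

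**Figure D2:**
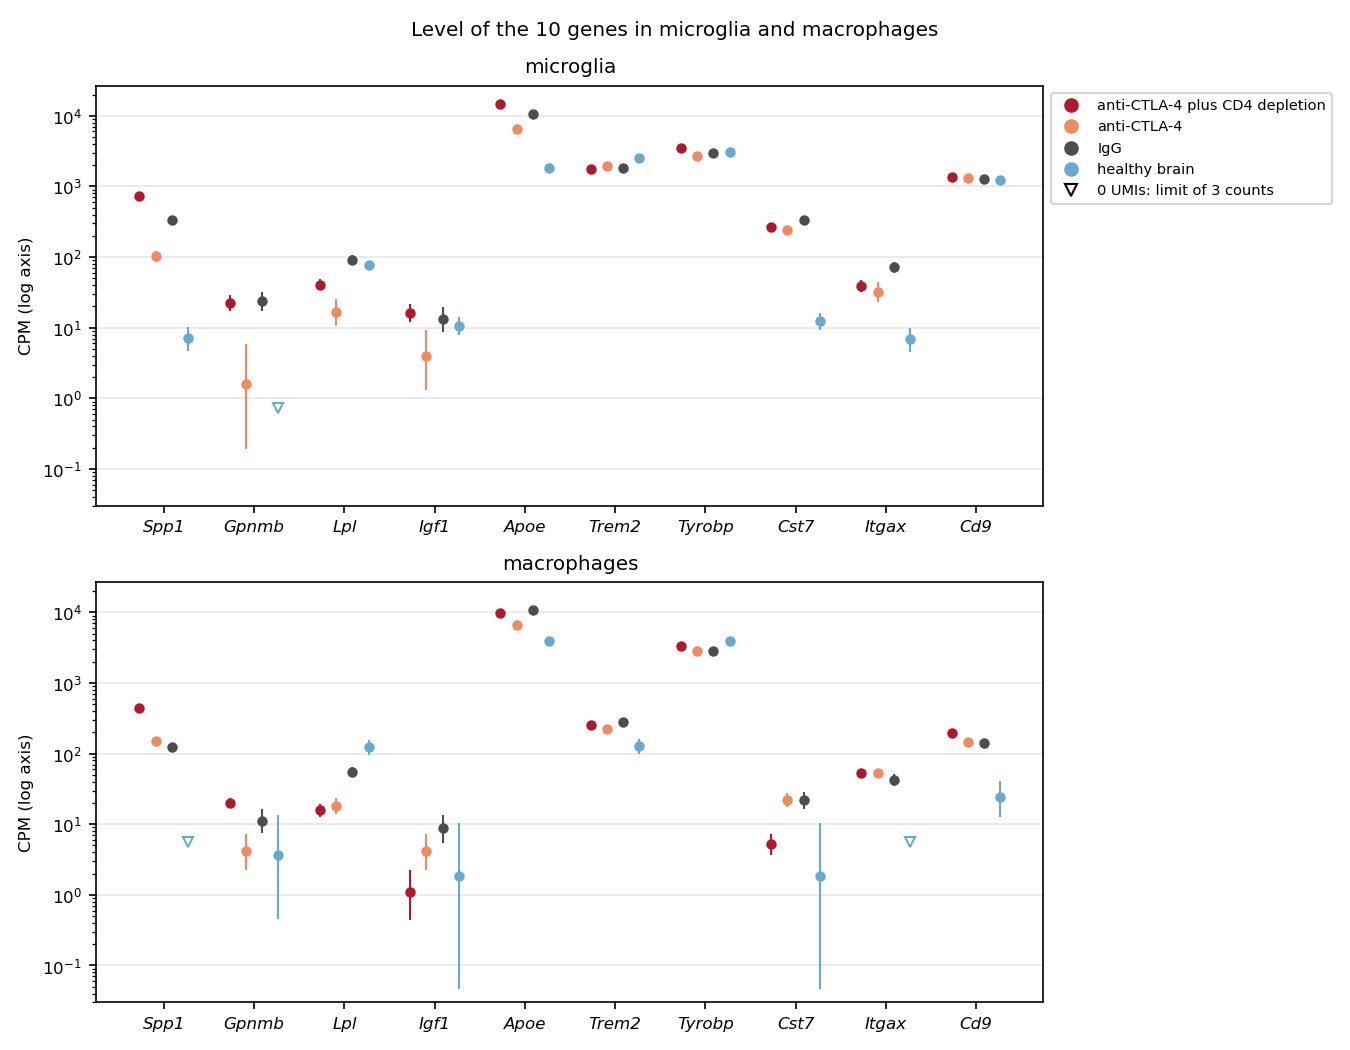
Level of each member in microglia (upper panel) and macrophages (lower panel), in CPM on a log axis, with 95% counting intervals; an open triangle marks the limit that 3 counts would give where 0 UMIs were seen. In microglia the healthy brain points lie lowest for Spp1, Apoe, Cst7 and Itgax, and Trem2 is highest there.

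Compared within cluster 1, neither Apoe nor Itgax passed between IgG and healthy brain. IgG microglia were mostly cluster 1 and healthy microglia mostly cluster 19. Apoe stood at 1341 CPM in the 732 healthy cells of cluster 19 and at 10064 CPM in the 51 healthy cells of cluster 1, whose median depth was 1553 UMIs. In cluster 1 it stood at 14124 CPM with depletion, 7523 with anti-CTLA-4 and 10572 with IgG, and the ratio of IgG to healthy brain there was 1.05 (95% CI 0.993 to 1.11). Itgax had a ratio of 1.39 within cluster 1, with an interval of 0.657 to 3.53 that reaches past 2-fold, and Lpl one of 0.598 (0.379 to 0.992). Cst7 stood at 316, 281 and 351 CPM in tumor cells of cluster 1 and 7.67 CPM in healthy cells of it, where it had 1 UMI; the ratio was 45.7 with a lower bound of 8.18. It was the only 1 of 8 members tested to pass within cluster 1, near the share of all genes, of which 13% rose and 5.01% fell. Spp1 had a ratio of 20.7 within cluster 1, but in under 10% of cells. In the 27 and 32 cells of cluster 19 with depletion and with anti-CTLA-4, Apoe stood at 806 and 769 CPM and Trem2 at 2667 and 2465 CPM, beside 1341 and 2523 CPM in the healthy cells. Cst7 had 0 UMIs, 23.5 and 10.2 CPM there.

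Markers of other cells moved with these differences. The 30 markers of monocyte-derived macrophages summed to 3769, 3047 and 4236 CPM in microglia of the tumor libraries and 1204 CPM in healthy microglia. Of these, 29, 27 and 29 were seen in the tumor libraries, and 27 in healthy brain, where Arg1 and Saa3 were at 0. The sum includes Lyz2, Lgals3 and Fabp5, which also belong to the disease-associated genes. The 12 glioma markers summed to 134, 35.4, 59.6 and 18.1 CPM, most of it Vim, with Sox2, Olig2, Ptprz1, Dcx, Sox11 and Pdgfra among those at 0 in each library. Genes of the dissociation response summed to 1348, 1436 and 1471 CPM in tumor microglia and 2695 CPM in healthy ones. Their part in the results was not tested.

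With anti-CTLA-4, Lpl and Itgax were lower in microglia than with IgG, and no member was higher. Lpl, at 16.9 against 90.7 CPM, was 5.37-fold lower (95% CI 3.40 to 8.90), and Itgax, at 32.2 against 71.4 CPM, 2.22-fold lower (1.55 to 3.24). Of 8 members tested these 2 fell and none rose, while 1% of all 6381 genes fell and 0.596% rose. The same members passed among cluster 1 cells alone, where 0.731% of genes fell, with ratios of 0.185 and 0.465. After every cell was thinned to 1000 UMIs, none passed, since too few UMIs or cells were left, although the ratios were 0.281 for Lpl and 0.337 for Itgax.

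The other members differed less or rested on few cells. Apoe was at 0.615 of the IgG level (0.599 to 0.631), Cst7 at 0.728 (0.633 to 0.836) and Trem2 at 1.09 (1.03 to 1.15). Spp1 gave a ratio of 0.304, seen in 5.34% of anti-CTLA-4 cells and 9.41% of IgG cells, but the mean of per-cell CPM turned it to 1.23, so its direction depended on the scaling. Igf1 and Gpnmb had 5 and 2 UMIs with anti-CTLA-4 against 25 and 44 with IgG, too few for the threshold.

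With CD4 depletion added, microglia carried more Spp1, Apoe and Lpl than with anti-CTLA-4 alone. All 10 members could be tested, 3 rose and none fell, while 2.65% of all 6936 genes rose and 5.28% fell. Median-of-ratios size factors moved the median gene by 0.13 on the log2 scale, and with them 267 genes rose and 229 fell, against 184 and 366 by CPM. Apoe, at 14909 against 6552 CPM, was 2.28-fold higher (95% CI 2.22 to 2.33). Lpl, at 40.9 against 16.9 CPM, was 2.42-fold higher (1.51 to 4.06) and stayed under its IgG level of 90.7 CPM. Spp1, at 729 against 102 CPM, was 7.13-fold higher (5.96 to 8.60), and a UMI was seen in 25.4% of cells against 5.34%. In B cells the Spp1 shares were 1.47% and 1.08%.

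Single cells weighed heavily on Spp1. With depletion 638 of its 2051 UMIs lay in 1 cell, and with anti-CTLA-4 65 of 127. Without the highest cell of each library the levels were 506 and 49.99 CPM, a ratio of 10.1, whereas the mean of per-cell CPM gave 1.32, which does not pass. Lpl did not pass by that mean (1.52) or after thinning to 1000 UMIs (1.37). After thinning to 1000 UMIs, 14.6% (95% CI 11.4 to 18.2%) of cells with depletion and 2.5% (0.817 to 5.74%) with anti-CTLA-4 had a Spp1 UMI. These intervals do not overlap, but they leave out variation between libraries. Gpnmb at 22.4 against 1.61 CPM and Igf1 at 16.4 against 4.02 CPM exceeded 2-fold in under 10% of cells. Trem2 and Cd9 had ratios of 0.912 and 1.05.

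**Figure D3:**
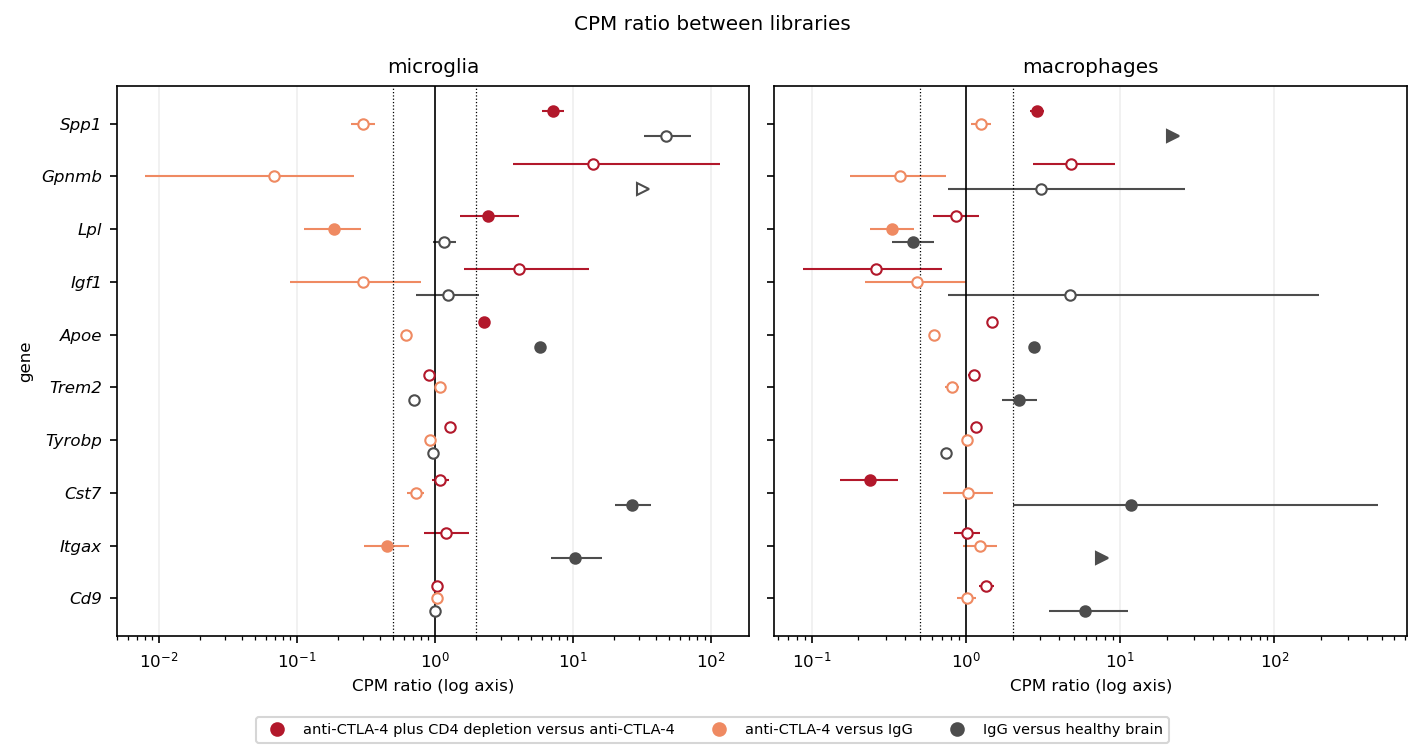
CPM ratio of each member between libraries, on a log axis, in microglia (left) and macrophages (right), with 95% counting intervals; filled points rose or fell by the threshold, dotted lines mark a ratio of 2 in either direction, and triangles are lower bounds. In microglia Spp1, Apoe and Lpl lie right of the line for depletion against anti-CTLA-4 and left of 1 for anti-CTLA-4 against IgG, and Trem2, Tyrobp and Cd9 stay between the dotted lines throughout.

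The depletion library was compared cluster by cluster as well, since 194 of its 460 microglia lay in cluster 5. Within cluster 1, Spp1 stood at 410 CPM with depletion and 118 with anti-CTLA-4, 3.47-fold higher (2.85 to 4.24), and Lpl was 2.82-fold higher (1.67 to 4.97). Apoe was 1.88-fold higher there and did not pass. Of 8 members tested within cluster 1, 2 rose and none fell, while 1.56% of all genes rose and 3.11% fell. In the depletion library Spp1 was 2.66-fold higher (2.41 to 2.94) in cluster 5 than in cluster 1, at 1091 against 410 CPM. That call rests on 1 cell of cluster 5 with 638 UMIs, since without the highest cell of each cluster the levels were 637 and 336 CPM, less than 2-fold apart. Spp1 was the only member of 9 tested to differ by 2-fold between them, where 3.42% of genes were higher and 4.52% lower. The 74 cycling microglia of cluster 7, counted apart, held 1271 CPM of Spp1, 3.098-fold more than cluster 1 (2.77 to 3.46; 868 against 336 CPM without the highest cell of each), and 21.5 CPM of Lpl, a ratio of 0.428. These were 2 of 8 members tested, where 4.67% of genes were higher and 6.77% lower.

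**Figure D4:**
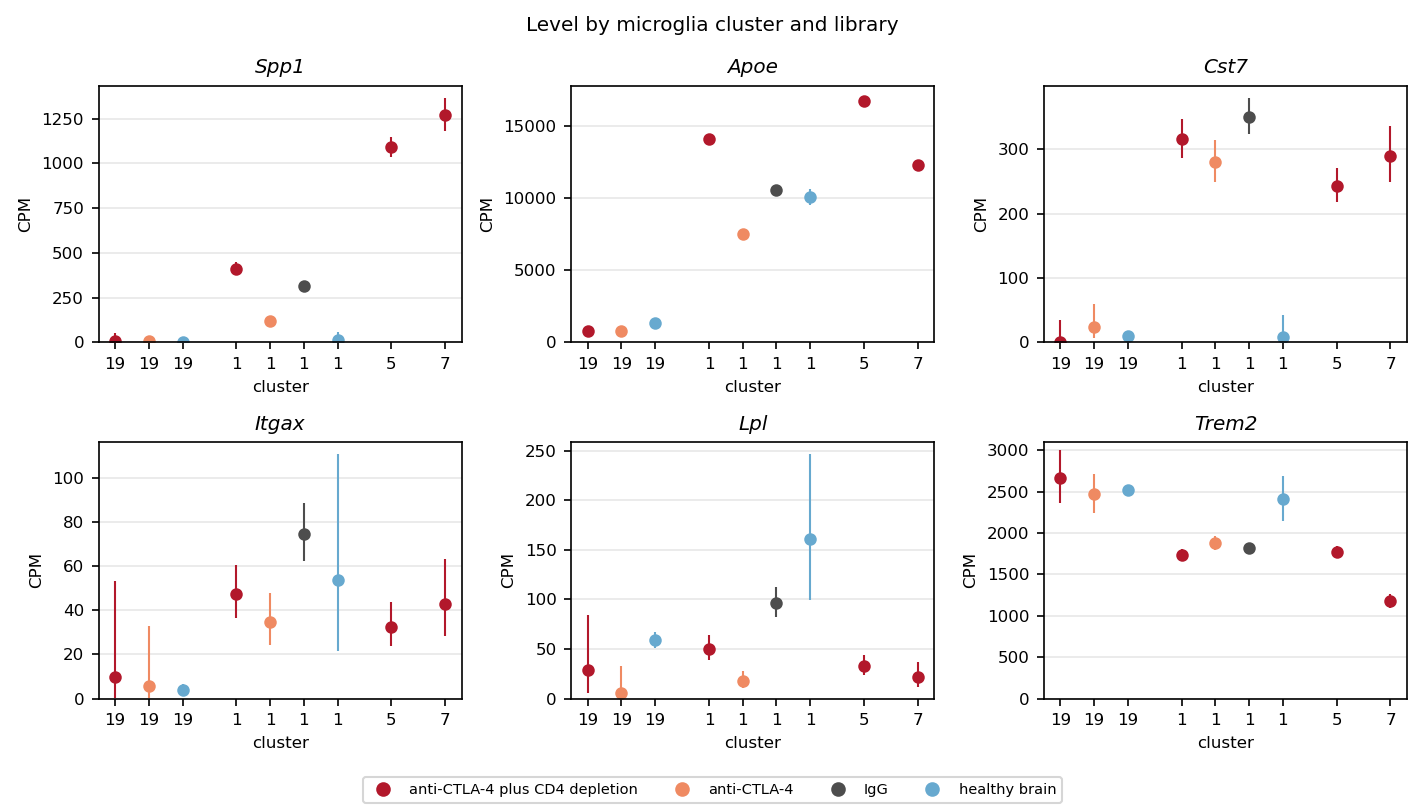
Level of 6 members in microglia clusters 19, 1, 5 and 7, in CPM with 95% counting intervals, coloured by library, for clusters with at least 20 cells of the library. Apoe is low in the cluster 19 cells of the 3 libraries plotted, Cst7 is low in the healthy cells of cluster 1 as well, and Spp1 is highest in clusters 5 and 7 of the depletion library.

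Spp1 was carried by a small set of microglia and macrophages. Cells with at least 10 Spp1 UMIs numbered 43 of 460 microglia with depletion (9.35%, 95% CI 6.85 to 12.4%), 3 of 206 with anti-CTLA-4 (1.46%, 0.301 to 4.20%), 8 of 287 with IgG (2.79%, 1.21 to 5.42%) and 1 of 791 in healthy brain (0.126%, 0.0032 to 0.702%). They held 89.8%, 89.0%, 90.3% and 41.4% of all microglial Spp1 UMIs. The depletion interval lies above the others, and those of anti-CTLA-4 and IgG overlap. These intervals count cells of 1 library each and leave out variation between libraries. Among macrophages such cells made up 7.41%, 2.55% and 3.00% of the tumor libraries and 0 of 54 in healthy brain, and held 87.1%, 91.3% and 71.2% of the UMIs. Trem2 was spread more evenly: the 10% of microglia with the most Trem2 UMIs held 27.1%, 25.1%, 31.6% and 22.1% of them, against 91.1%, 100%, 100% and 100% for Spp1. For Apoe these shares were 45.3%, 62.9%, 58.6% and 75.6%.

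**Figure D5:**
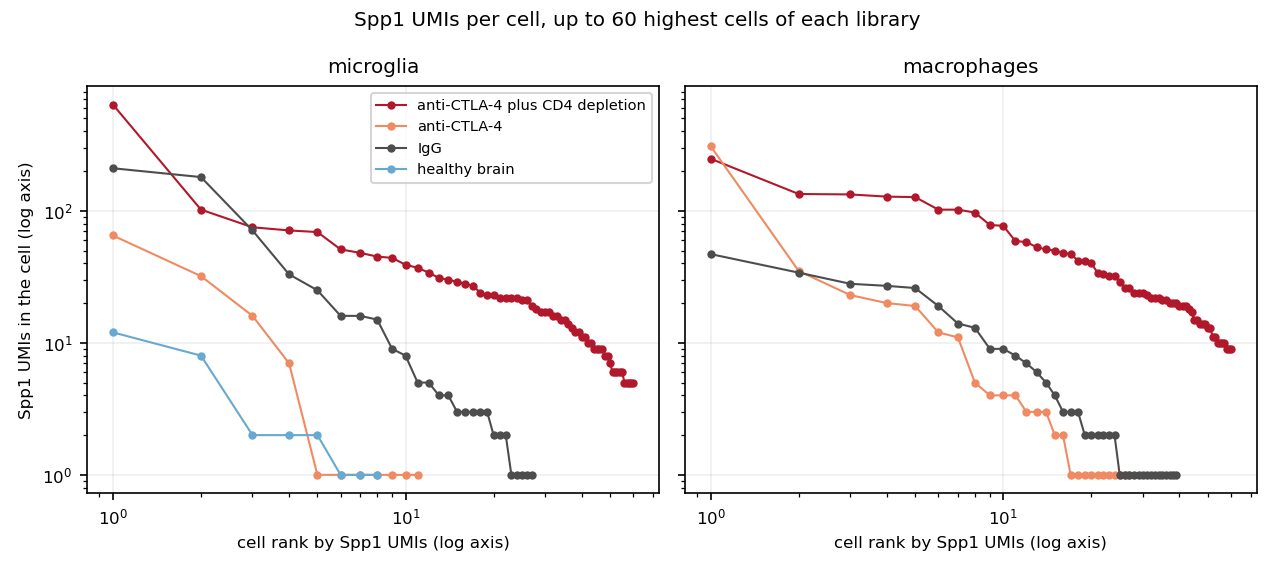
Spp1 UMIs per cell for up to 60 cells with the most in each library, ranked from the highest, on log axes, in microglia (left) and macrophages (right). With depletion 43 microglia hold at least 10 UMIs, whereas the curves of the other libraries drop under 10 within their first 9 microglia, and no healthy macrophage had a UMI.

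Over all cells named macrophages, those of IgG tumors carried more Apoe, Trem2, Cst7, Itgax, Cd9 and Spp1 than those of healthy brain, and less Lpl. Of 8 members tested 6 rose and 1 fell, while 10.6% of all 5606 genes rose and 6.96% fell. Healthy macrophages were few and lay in another cluster. Of the 54, 49 lay in cluster 17, led by F13a1, Lyz2 and Vcan, against 33 of 267 with IgG, of which 228 lay in cluster 10. Vcan and Chil3, both among the leading genes of cluster 17, are also on the monocyte marker list. Whether its cells are monocytes or macrophages was not tested, so this comparison may set macrophages against monocytes. Within cluster 17, none of the 3 members tested passed, where 4.31% of genes rose and 3.31% fell, and the directions of Trem2 and Cd9 turned, with ratios of 0.987 and 0.677. Apoe stood at 9763, 6617, 10674 and 3882 CPM with depletion, with anti-CTLA-4, with IgG and in healthy brain, and the ratio of IgG to healthy brain was 2.75 (95% CI 2.63 to 2.88) over all macrophages and 1.91 (1.73 to 2.10) within cluster 17. Trem2 stood at 253, 225, 278 and 126 CPM, where 27 of the 68 healthy UMIs came from 1 cell. Cd9 stood at 196, 145, 143 and 24.1 CPM, Cst7 at 5.28, 22.2, 21.7 and 1.85 CPM, and Tyrobp at 3341, 2871, 2848 and 3867 CPM. Gpnmb (129, 13, 27 and 2 UMIs) and Igf1 (7, 13, 21 and 1 UMIs) were too rare to test against healthy brain. Spp1 stood at 436, 151 and 122 CPM and Itgax at 53.3, 52.5 and 42.6 CPM in tumor macrophages, and both had 0 UMIs in healthy ones, so that IgG was at least 21.9-fold and at least 7.66-fold higher. After thinning to 1000 UMIs 2 of the 7 passed.

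Lpl was lower in tumor macrophages than in healthy ones. It stood at 15.7 CPM with depletion, 18.3 with anti-CTLA-4, 55.1 with IgG and 122 in healthy brain, and IgG was 2.22-fold lower than healthy brain (95% CI 1.63 to 3.01). The levels differed between clusters, at 48.6, 89.3, 235 and 127 CPM in cluster 17 and at 19.6, 11.9 and 30.6 CPM in cluster 10 of the tumor libraries. Within cluster 17 the ratio of IgG to healthy brain was 1.85 (1.30 to 2.65), in the opposite direction. With anti-CTLA-4 it was 3.01-fold lower (2.19 to 4.18) than with IgG, the only 1 of 8 members tested to pass, where 0.552% of genes rose and 0.793% fell; by median-of-ratios size factors 48 genes rose and 45 fell, against 39 and 56. That call was lost without cluster 17, where the ratio was 0.398 in under 10% of cells, and within cluster 10 no member passed, where 0.708% of genes rose and 0.767% fell. The other members had ratios of anti-CTLA-4 to IgG from 0.371 for Gpnmb, on 13 against 27 UMIs, to 1.24 for Spp1. The Spp1 ratio became 0.508 without the highest cell of each library, since 309 of 470 UMIs with anti-CTLA-4 lay in 1 cell.

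With depletion, macrophages had more Spp1 and less Cst7 than with anti-CTLA-4. Of 9 members tested 1 rose and 1 fell, while 2.39% of all 8107 genes rose and 4.27% fell. Spp1 stood at 436 CPM against 151, 2.88-fold higher (95% CI 2.61 to 3.18), and 7.63-fold higher without the highest cell of each library. A UMI was seen in 25.7% against 9.85% of cells. Cst7 stood at 5.28 CPM against 22.2, 4.21-fold lower (2.75 to 6.54). Both passed within cluster 10, which both libraries filled, with ratios of 2.72 and 0.371, where 0.448% of genes rose and 1.87% fell. Within cluster 17 neither passed. Between cluster 3, of which 428 of 434 cells came from the depletion library, and cluster 10 of that library, no member of 8 tested passed, against 5.37% of genes that rose and 6.62% that fell. Over all macrophages Gpnmb, at 20.03 against 4.18 CPM, exceeded 2-fold in 3.25% of cells. Neutrophil markers summed to 7965 and 3333 CPM in macrophages of these libraries, and T cell markers to 1152 and 4714 CPM, and their part in these differences was not tested.

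Set side by side within a library, microglia exceeded macrophages in Trem2, Cst7 and Cd9 in each tumor library. The ratios for Trem2 were 7.07 with depletion (95% CI 6.68 to 7.48), 8.71 with anti-CTLA-4 (8.00 to 9.48) and 6.48 with IgG (5.96 to 7.06). For Cd9 they were 6.95, 8.98 and 8.77, and for Cst7 50.9, 11.02 and 15.5. Lpl passed as well with depletion, at 2.61 (1.98 to 3.44), but not without macrophage cluster 3 (1.65), and it turned to 0.841 against macrophages of cluster 17 alone. So 4 of 10, 3 of 8 and 3 of 9 members tested were higher in microglia and none was lower, while 12.6%, 20.2% and 16.4% of all genes were higher and 7.92%, 13.4% and 10.5% lower. Over all macrophages Apoe did not separate the classes, with ratios of 1.53, 0.990 and 0.998, and neither did Tyrobp, at 1.06, 0.951 and 1.03. Against the 61, 24 and 33 macrophages of cluster 17 alone, the Apoe ratios were 4.66, 3.24 and 3.57. The ratio of Spp1 was 1.67 with depletion, 0.676 with anti-CTLA-4 and 2.76 with IgG. It turned to 0.875 with depletion without cluster 5 and to 3.78 with anti-CTLA-4 by the mean of per-cell CPM. Median-of-ratios size factors moved the median gene by -0.22, -0.31 and -0.21 on the log2 scale in these comparisons. With them 825, 951 and 871 genes were higher in microglia and 925, 1384 and 959 lower, against 1067, 1399 and 1154 higher and 669, 924 and 742 lower by CPM.

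Patrolling monocytes, named from cluster 12, carried Apoe at 4188, 3851, 4729 and 3758 CPM with depletion, with anti-CTLA-4, with IgG and in healthy brain. Its ratios were 1.09 for depletion to anti-CTLA-4, 0.814 for anti-CTLA-4 to IgG and 1.26 for IgG to healthy brain. Cd9 was at 261 CPM with IgG against 672 CPM in healthy brain, a ratio of 0.389, and was the only 1 of 5 members tested to pass, where 3.25% of genes rose and 1.84% fell. Spp1 stood at 733 CPM with depletion and 1.86 CPM with anti-CTLA-4, but 403 of its 432 UMIs lay in 1 cell, and the level without that cell was 50.4 CPM. It was the only 1 of 6 members to pass there, where 1.7% of genes rose and 1.98% fell. Between anti-CTLA-4 and IgG none of 5 passed, where 0.955% of genes rose and 1.03% fell.

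In dendritic cells, of which healthy brain held 2, Itgax stood at 93.6 CPM with depletion, 43.5 with anti-CTLA-4 and 89.6 with IgG. It fell with anti-CTLA-4 against IgG (ratio 0.486) and rose with depletion against anti-CTLA-4 (2.15), on 139, 24 and 51 UMIs. Trem2, at 15.5, 21.8 and 91.3 CPM, fell with anti-CTLA-4 as well (0.238), on 23, 12 and 52 UMIs. C1qa, a complement gene of microglia and macrophages, stood at 109, 23.6 and 265 CPM in the same dendritic cells, and its part in the Trem2 values was not tested. These were 2 of 5 members tested against IgG, where 0.847% of genes rose and 2% fell, and 1 of 4 between depletion and anti-CTLA-4, where 4.37% rose and 6.89% fell. In neutrophils Apoe stood at 623, 100, 796 and 56.5 CPM in the 4 libraries, but 93 of the 111 UMIs with IgG lay in 1 cell, and the level without it was 135 CPM. Apoe was the only member to pass in neutrophils, 6.23-fold higher with depletion than with anti-CTLA-4 (1 of 5 tested; 10.1% of genes rose and 8.37% fell). Its ratio was 0.126 for anti-CTLA-4 to IgG (1 of 3; 2.39% rose and 2.85% fell) and 14.1 for IgG to healthy brain (1 of 3; 34.6% rose and 14.5% fell). C1qa stood at 82.1, 8.33, 452 and 81.3 CPM in these neutrophils, with 1 UMI with anti-CTLA-4, and its part in the Apoe values was not tested.

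Among lymphocytes, Cst7 was highest in NK and CD8 T cells. In NK cells, of which healthy brain held 4, it stood at 131 CPM with depletion, 190 with anti-CTLA-4 and 227 with IgG, with no ratio past 2-fold. Apoe was the only member to pass in NK cells, at 203 CPM with anti-CTLA-4 against 64.6 with IgG (1 of 6 tested; 0.896% of genes rose and 0.52% fell). C1qa was at 113 against 42.0 CPM in the same NK cells, so that there were 1.79 and 1.54 Apoe UMIs per C1qa UMI. None of 6 passed between depletion and anti-CTLA-4, where 0.218% rose and 1.55% fell. In T cells Cst7 stood at 98.8, 158, 140 and 37.9 CPM, the healthy brain being lowest, and the ratio of IgG to healthy brain was 3.68. CD8 T cells held 115, 221, 203 and 51.6 CPM. In B cells it stood at 2.29, 5.73 and 29.8 CPM in the tumor libraries and had 0 UMIs in healthy brain. Between IgG and healthy brain Cst7, Apoe and Tyrobp rose in T cells, 3 of 5 members tested, where 11.8% of all genes rose and 2.1% fell. C1qa stood at 86.0 CPM with IgG and 17.1 CPM in healthy brain in the same T cells. Per C1qa UMI there were 1.62 and 2.21 Cst7 UMIs, 2.39 and 0.43 Apoe UMIs, and 0.846 and 1.21 Tyrobp UMIs. The part of RNA from other cells in these rises was not tested. In the 2 other comparisons of T cells, none of 6 members passed, against 0.194% and 0.152% of genes that rose and 0.111% and 0.952% that fell.

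Apoe and Spp1 were also found in lymphocytes. Apoe stood at 161, 188, 205 and 7.34 CPM in T cells and at 823, 1228, 2043 and 258 CPM in B cells. In B cells IgG passed against healthy brain (ratio 7.92), 1 of 2 members tested to rise, where 2.36% of genes rose and 8.55% fell; 246 of the 823 IgG UMIs lay in 1 cell. Tyrobp, the other member tested, was at 0.487 of the healthy level with IgG, where 47 of 91 healthy UMIs lay in 1 cell and the levels without the highest cells were 85.6 and 109 CPM, and 2.20-fold higher with depletion than with anti-CTLA-4 (1.39% of genes rose and 2.26% fell), and neither member passed between anti-CTLA-4 and IgG (1.42% in each direction). Apoe UMIs were set against those of C1qa, which lymphocytes do not use. The ratio was 8.16, 8.35, 11.8 and 11.9 in B cells, 1.84, 1.62, 2.39 and 0.43 in T cells, 1.26, 0.491, 0.842 and 0.192 in microglia and 13.4, 5.47, 7.32 and 7.07 in macrophages. The share of RNA from other cells in these lymphocyte levels was not tested. Spp1 in T cells stood at 15.1, 45.1 and 111 CPM in the tumor libraries with 0 UMIs in healthy brain, seen in 4.3%, 4.47% and 3.18% of cells. With IgG 151 of its 242 UMIs lay in 1 cell, and in the 111 CD4 T cells of that library 7 cells carried 238 of them. In NK cells Spp1 stood at 14.99, 67.2 and 17.2 CPM. Lpl, Gpnmb and Igf1 reached at most 16.9 CPM in T, NK or B cells, and the 7 Lpl UMIs behind that value lay in 1 healthy B cell.

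Several members were often seen in the same microglia, also in healthy brain. In cells thinned to 2000 UMIs the median was 4 members per microglia in each tumor library and 3 in healthy brain. With every cell thinned to 2000 UMIs, at least 5 of the 10 members were seen in 35.8% of microglia with depletion, 20% with anti-CTLA-4, 30.2% with IgG and 6.93% in healthy brain, and in 5.87%, 4.06%, 3.92% and 1.96% of macrophages. Cst7 was seen in 39 of the 80 Spp1-positive microglia with depletion (48.8%), against 21.95% of the rest, in 4 of 6 with anti-CTLA-4 (66.7%), against 19.6%, and in 9 of 15 with IgG (60%), against 25.5%. Lpl was seen in 7 of these 80 cells with depletion (8.75%), against 4.88% of the rest, in 0 of 6 with anti-CTLA-4, against 5.29%, and in 6 of 15 with IgG (40%), against 5.5%. Gpnmb and Lpl were not seen together in any thinned microglia or macrophage of the 4 libraries. Gpnmb was seen in only 10, 1, 2 and 0 of these microglia and in 9, 3, 3 and 0 of these macrophages. That is too few to show whether the 2 genes exclude each other. In macrophages Spp1 went with Cd9, which was seen in 52.2% of 115 Spp1-positive cells with depletion, against 18.7% of the rest, in 69.2% of 13 with anti-CTLA-4, against 12.02%, and in 33.3% of 21 with IgG, against 15.8%. Cells of 1 library are not replicates, and these shares describe the libraries only.

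Other genes of the program also rose in IgG microglia. Of 23 other disease-associated genes tested in microglia, 12 rose and 1 fell with IgG against healthy brain, where 4.04% of all genes rose and 7.19% fell. Their median log2 ratio was 1.09, against -0.33 over all genes. Lgals3, a galectin of phagocytes, stood at 143 against 8.78 CPM (16.3-fold), the inhibitory receptor Lilrb4a was 16.8-fold higher, and Axl, a receptor for dying cells, stood at 147 against 12.9 CPM (11.3-fold). Of the 14 homeostatic genes 11 fell and none rose, with a median of -1.35. Fcrls fell to a ratio of 0.120, and P2ry12, the purinergic receptor that defines resting microglia, to 0.216, at 750 against 3475 CPM. Of 12 genes of TREM2 and TYROBP signalling tested, Siglech, which also marks homeostatic microglia, fell and none rose. Within cluster 1, 8 of 22 other disease-associated genes rose and 1 fell (median 0.46), and 4 of 14 homeostatic genes fell (median -0.63), against a median of 0.02 over all genes, of which 13% rose and 5.01% fell.

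Receptors and partners of the members were tested as well. Of 25 tested in IgG and healthy microglia 4 rose and 4 fell, against 4.04% and 7.19% of all genes. Within cluster 1, 3 of 19 rose, near the 13% of all genes that rose there, and none fell, against 5.01% of all genes. The ratios that follow are over all microglia, mostly cluster 1 with IgG and mostly cluster 19 in healthy brain. Cd36, a scavenger receptor that takes up fatty acids, stood at 119 against 1.22 CPM (97.3-fold, 95% CI 41.1 to 303). Cd44, a receptor for osteopontin, was 14.03-fold higher (8.24 to 25.5), and Ctsc, a lysosomal protease that cystatin F inhibits, 2.74-fold. Itga9, another osteopontin receptor chain, was at 0.156 of the healthy level and Igf1r, the receptor of Igf1, at 0.370. Of 10 lipid handling genes 4 rose and none fell, among them Fabp5 (7.55-fold), a fatty acid carrier, and Plin2 (2.45-fold), a coat of lipid droplets. Within cluster 1 it was 1 of 9, near the 13% of all genes that rose there. None of 9 MiT/TFE factors and lysosomal targets passed.

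Between anti-CTLA-4 and IgG microglia, none of the 22 other disease-associated genes and none of the 14 homeostatic genes passed, with medians of -0.41 and 0.44 against 0.03 over all genes. Few genes of any kind passed in this comparison, as 0.596% of all genes rose and 1% fell. Among the receptors Itga9 rose 2.78-fold and Sdc4 fell to 0.492. Between depletion and anti-CTLA-4, 3 of 23 disease-associated genes rose, namely Lilrb4a (3.22-fold), Cd63 (2.65-fold) and Fabp5 (2.26-fold), and none fell. Over all genes 2.65% rose and 5.28% fell in this comparison. Of the 14 homeostatic genes 7 fell and none rose, with a median of -0.98 against -0.10 over all genes, P2ry12 standing at 546 against 1271 CPM. Within cluster 1, 2 of the 14 fell, with a median of -0.65 against -0.08 over all genes, and 3 of 22 disease-associated genes rose. Of all genes 1.56% rose and 3.11% fell within cluster 1. In macrophages 8 of 19 other disease-associated genes rose with IgG against healthy brain and 2 fell, where 10.6% of all genes rose and 6.96% fell. Hif1a, a hypoxia factor, was 12.2-fold and Axl 4.01-fold higher. Most IgG cells of this comparison lay in cluster 10 and most healthy ones in cluster 17. None of 20 passed between anti-CTLA-4 and IgG macrophages, where 0.552% of all genes rose and 0.793% fell. Between depletion and anti-CTLA-4, 2 of 21 rose in macrophages, namely the lysosomal protease gene Ctsl (2.88-fold) and Cd63 (2.44-fold). Over all genes 2.39% rose and 4.27% fell there.

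The genes whose levels followed a member most closely over 27 class and library pairs were sought among 9472 genes, by Pearson correlation of log2 of CPM plus 5. The points share libraries and depth, and the values describe them only. Trem2 went with Slc7a8 (0.98), Itgb5 and Adap2, Tyrobp with Fcer1g (0.97), Itgam and Fes, and Apoe with Mfsd1 (0.92), Rufy3 and Fcgr2b. Cd9 went with Arhgef2 (0.91), Lpl with Gm13251 (0.90), Cst7 with Rcn1 (0.89), Itgax with Cd244 (0.86), Spp1 with Saa3 (0.84), Gpnmb with Ccl7 (0.82) and Igf1 with Pdgfa (0.81). Spp1 and Gpnmb correlated at 0.63 with each other and Spp1 and Lpl at 0.12.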

How the data were processed

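The authors deposited UMI counts per barcode and gene, unnormalized, from 10x Genomics 3′ v2 libraries. Cell Ranger 3.1.0 and mm10 are named per the file headers and the submitters' processing notes; other settings are not given in the sources used here. A cell was kept if it had 200 or more genes and no more than 10% of its UMIs from mitochondrial genes. Scrublet in scanpy 1.11.5 (Python 3.11.15) removed 12 cells from healthy brain and 10 from IgG at its automatic threshold. That threshold called under 0.5% in the other libraries, where the top 5% of scores were removed (169 with depletion, 90 with anti-CTLA-4). Leiden clustering at resolution 1 used 2000 variable genes, 30 principal components and 15 neighbours, left out 34 members and other disease-associated genes, and gave 23 clusters, named afterwards from marker lists. CD8 and CD4 T cells were T cells with a Cd8a or Cd8b1 UMI only or a Cd4 UMI only. UMIs were summed per class and library. Ratios have exact conditional-binomial intervals, levels exact Poisson and shares exact Clopper-Pearson intervals, at 95%; where one library had 0 UMIs, 3 counts were put in its place and the ratio is a lower bound. The ratio and call steps were tested on simulated counts drawn independently for each cell, where the genes changed were not rarely seen ones. These counts hold no gathering of UMIs in single cells, so the test does not cover genes such as Spp1. All members are named, and from other lists genes past the threshold with large ratios. Members and lists were chosen with earlier results of these data known. Gene coordinates are from GENCODE vM21, where all 10 IDs matched. Without replicates, precision is that of counting. Alternatives covered cell filters, doublets, scaling, thinning, per-cell means, thresholds and clustering.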

Additional observations from a re-analysis of the deposited data

How the results depend on the processing

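Member ratios were recomputed under up to 18 alternatives each, leaving out the 2 that change only the threshold. Of 1373 values, 1052 stayed within their counting interval, 316 moved further and 5 called ratios changed direction, all with cluster 17 as the only macrophages. These were Lpl (1.85), Trem2 (0.987) and Cd9 (0.677) for IgG against healthy macrophages, Cst7 (1.09) for depletion against anti-CTLA-4 macrophages, and Lpl (0.841) for microglia against macrophages with depletion; this leaves fewer cells. The count of members past the threshold changed by over 1.5 times in these cases. With at least 20 UMIs and no minimum share of cells, it was 5 in microglia for IgG against healthy brain, 5 for anti-CTLA-4 against IgG and 5 for depletion against anti-CTLA-4, 3 and 4 in macrophages for the last 2 comparisons, and 5 for microglia against macrophages with IgG, by construction of the looser threshold. Thinned to 1000 UMIs, which leaves fewer UMIs to test, it was 2 in macrophages for IgG against healthy brain, 0 in microglia and 0 in macrophages for anti-CTLA-4 against IgG, and 1 in macrophages for depletion against anti-CTLA-4. A ratio of 1.5 gave 2 in macrophages for anti-CTLA-4 against IgG and 5 for microglia against macrophages with IgG. The mean of per-cell CPM gave 1 in microglia for depletion against anti-CTLA-4, and the cause was not tested. Alternatives chosen after seeing the data gave 1 for IgG against healthy brain in cluster 1 alone and 0 for anti-CTLA-4 against IgG macrophages without cluster 17 or in cluster 10 alone. In cluster 17 alone they gave 0 for IgG against healthy macrophages, 0 for depletion against anti-CTLA-4 macrophages and 6 for microglia against macrophages with IgG. IgG against healthy macrophages without cluster 17 or in cluster 10 alone was not run, as 5 healthy cells were left. No paired analysis was possible because each group had 1 library. Depth limits Gpnmb, Igf1 and Lpl most, which often had under 50 UMIs per class and library.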
